A study of Homo sapiens with 6 samples.

Results

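The comparison described here sets HaCaT cells that were irradiated with UVC and then had their CPD photolyase activated by light against untreated HaCaT cells. It asks what was left of the response to UVC, and what lay outside the range of untreated cells, once cyclobutane pyrimidine dimers (CPDs) could be removed. HaCaT is an immortalised line of human skin keratinocytes, and all cells of the study expressed a CPD photolyase taken from a marsupial, Potorous tridactylus. Control cells were untreated and their photolyase was inactive. The UVC group received 15 J/m2 at 254 nm, kept an inactive photolyase and was harvested 6 h after irradiation. The active photolyase group was treated in the same way, with the addition of 2 h of white light, which activated the enzyme. Each group had 2 libraries, and the labels leave unsaid whether a pair comes from separate cultures. P-values therefore measure the scatter between these libraries alone, and that scatter may be technical. White light was given only to the active photolyase group, so light and photolyase activity cannot be told apart.

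Of 19493 genes with values, 11360 were kept because they reached 1 cRPKM (reads per kilobase of gene and per size of library, corrected by the authors) in at least 2 of the 4 control and active photolyase libraries. Near this limit, 163 genes had a second-highest value from 1 to under 1.1 cRPKM and 171 had one from 0.9 to under 1. TBC1D1, MBNL3 and BICRAL lay just inside at 1 cRPKM, and USP2, GAL and ZNF264 just outside at 0.99 cRPKM. The rule left out 542 genes that reached 1 cRPKM in both UVC libraries. Levels are printed as scaled cRPKM, the deposited cRPKM divided by a library scaling factor, and changes as log2 fold changes ± SE from edgeR's quasi-likelihood test. "Rose" and "fell" mean an adjusted p under 0.05 against control. Both irradiated groups were compared with the same control libraries, so their changes share that reference and are set side by side as values only.

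UVC fuses neighbouring pyrimidines in DNA into CPDs and 6-4 photoproducts, both of which block RNA polymerase II on the transcribed strand. A CPD photolyase binds CPDs and splits them with the energy of visible light, and it leaves 6-4 photoproducts in place. Placental mammals lack photolyases and remove both lesions by nucleotide excision repair, in which a damaged stretch is cut out and filled in.

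Total counts ran from 57669389 to 70005705 per library, with at least 67153025 in the 4 libraries compared. The share of counts from mitochondrially encoded genes was 3.32 and 3.92% in control against 4.09 and 3.21% with active photolyase. All 12 keratinocyte markers passed the level filter, and their summed level was 14877 to 15611 scaled cRPKM in control and 15257 to 15361 with active photolyase. Keratin genes KRT5 and KRT14 were abundant, at 6039.5 and 5682 scaled cRPKM for KRT14 in control and 6011 and 6046 with active photolyase. Of 7 melanocyte markers 1 passed the filter (MITF, -1.09), with TYR at 0 in all libraries. Of 9 fibroblast markers 2 passed, and the list summed to 7.53 and 8.71 in control and 9.84 and 9.46 with active photolyase. Of 11 immune cell markers 4 passed, MS4A1 and NKG7 were at 0 in all libraries, and the list summed to 144 and 131 in control and 188 and 198 with active photolyase, mostly from CD68 and CD74. Of 5 endothelial markers 1 passed (CDH5, -0.60). Of the keratinocyte markers 2 rose and 7 fell. In bulk RNA, fewer cells of a type and less RNA per cell cannot be told apart.

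With active photolyase most genes still differed from control, but by small amounts. Of the 11360 genes 3791 rose (33.4%) and 3769 fell (33.2%), 66.5% in all. All active photolyase libraries lay above all control libraries in 41.5% of genes and below them in 40.8%. In the UVC group the same genes gave 4837 rises (42.6%) and 4914 falls (43.3%) against control, 85.8% in all. The sizes were further apart than the counts. The median absolute log2 fold change was 0.27 with active photolyase and 0.62 after UVC alone, and the central 90% of genes spanned -0.74 to 0.87 and -1.99 to 1.253. A rise of at least 2-fold was called for 403 genes with active photolyase (3.55%) and for 1007 after UVC (8.86%). A fall of at least 2-fold was called for 231 (2.03%) and 2086 (18.4%). At 4-fold and more there were 65 rises and 7 falls with active photolyase, and 113 rises and 559 falls after UVC. Set directly against UVC, the active photolyase libraries were higher in 4509 genes (39.7%) and lower in 4624 (40.7%), 80.4% in all. Of these genes 1606 were at least 2-fold higher and 115 at least 2-fold lower. The level filter read only control and active photolyase libraries, and it left out 542 genes that reached 1 cRPKM in both UVC libraries. Counts of rises after UVC and of genes lower than UVC therefore lack genes present mainly after UVC. For comparisons with UVC the 2 directions are not on equal terms. Counts in the gene lists below are read against the 33.4% of all genes that rose and the 33.2% that fell. Counts after UVC are read against 42.6% and 43.3%, and counts against UVC against 39.7% and 40.7%. The general shares differed with genomic span. With active photolyase 57.9% rose and 9.21% fell in the shortest of 5 equal groups of genes, and 15.5% and 61.5% in the longest. Lists were not matched for span, and its part in their counts and medians was not tested. The median over all genes, active photolyase against control, was 0.01, the value against which list medians are read. Scaling by library totals, in place of trimmed means, moved that median to 0.11 and the split of calls from 3791 higher and 3769 lower to 4921 higher and 2827 lower.

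**Figure D1:**
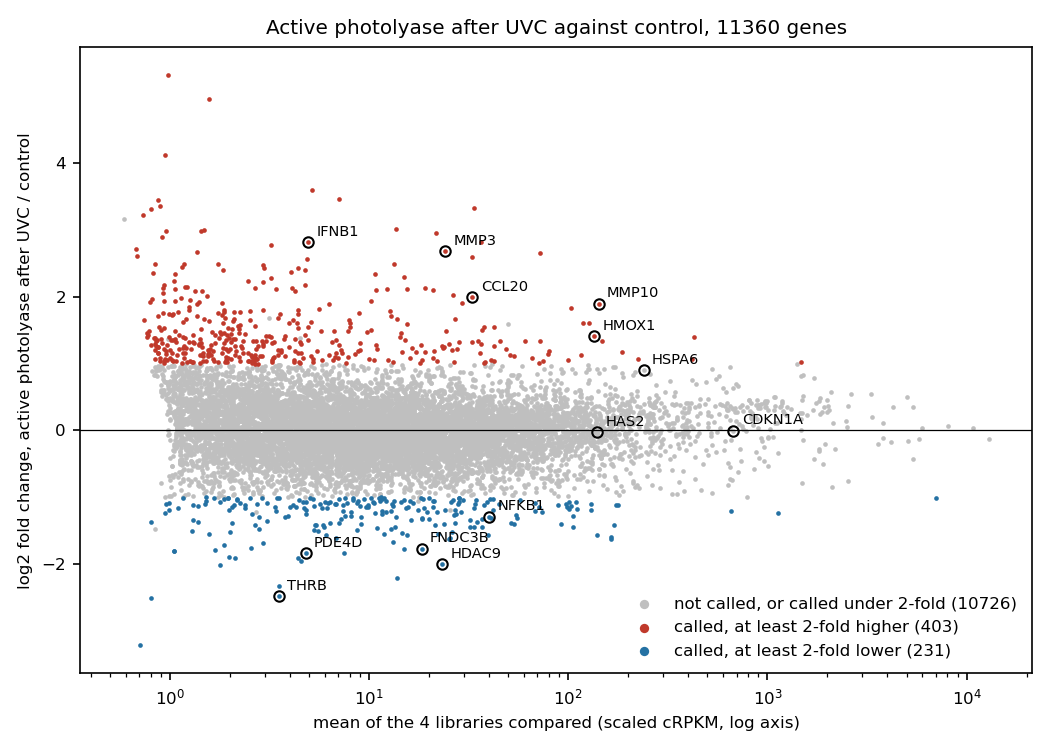
Each point is 1 of the 11360 genes, with the mean scaled cRPKM of the 4 libraries compared on a log axis (horizontal) and the log2 fold change of active photolyase after UVC over control (vertical). Red and blue points are the 403 and 231 genes called at 2-fold or more, and circled genes are described in the text.

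The genes that stayed furthest below control were spread over very long stretches of the genome. HDAC9, a histone deacetylase, stood at 37.9 and 36.8 scaled cRPKM in control, 2.96 and 3.33 after UVC alone and 8.73 and 9.91 with active photolyase. THRB, a thyroid hormone receptor, stood at 6.11 and 5.81 in control, 1.15 and 1.05 after UVC alone and 1.01 and 1.13 with active photolyase. NAV2, a gene of the neuron navigator family, stood at 5.18 and 6.60 in control, 0.733 and 0.610 after UVC alone and 1.15 and 1.196 with active photolyase. For HDAC9 and NAV2 the active photolyase libraries lay between the other groups, and for THRB they overlapped the UVC libraries. Against control these genes fell by 2.00 ± 0.07 (HDAC9, adjusted p = 4.09e-10), 2.47 ± 0.08 (THRB, adjusted p = 1.97e-10) and 2.33 ± 0.11 (NAV2, adjusted p = 2.32e-09) on the log2 scale. Their changes after UVC alone were -3.57, -2.44 and -3.13.

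The 12 largest falls also took in PDE4D, a phosphodiesterase that breaks down cAMP, at -1.83 with active photolyase and -3.83 after UVC, and ADGRL2, an adhesion G protein-coupled receptor, at -1.95 and -3.57. ARHGAP42 (-1.91), CLMN (-1.83), OSBPL10 (-1.78), FNDC3B (-1.77), COBL (-1.67) and the row ENSG00000133808, which has no symbol here (-2.21), completed them with PTPRK, a receptor tyrosine phosphatase. PTPRK stood at 36.1 and 39.7 scaled cRPKM in control, 17.1 and 16.8 after UVC alone and 11.5 and 13.01 with active photolyase. In PTPRK the active photolyase libraries were thus the lowest of all, at -1.63 ± 0.07 against control and -0.48 against UVC. Of the 12 genes 11 had a genomic span in GENCODE 29 (GRCh38), a build used here for lengths only, and the spans ran from 138 kb for CLMN to 1553 kb for PDE4D. All 11 lay in the longest quintile of genes by span.

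Over all genes the share of falls increased with genomic span. A span was found for 11184 of the 11360 genes (98.5%), and 5 equal groups of them, or quintiles, had median spans of 5.23, 14.9, 30.04, 58.1 and 144 kb. From the shortest to the longest quintile the share of genes that fell with active photolyase was 9.21, 18.1, 32.4, 45.7 and 61.5%, and the share that rose was 57.9, 42.8, 29.7, 20.5 and 15.5%. The median log2 fold change went from 0.25 to -0.32 over the same quintiles. The longest quintile held 196 of the falls of at least 2-fold, or 8.76% of its genes, and the other quintiles had 0.134 to 0.715%. The shortest quintile held 184 of the rises of at least 2-fold, or 8.23% of its genes, against 1.52 to 3.44% in the others. After UVC alone the medians went from 0.40 to -0.26, and the share of genes that fell went from 24.1 to 53.2%. With active photolyase the quartiles within a quintile were narrow, whereas after UVC they were broad in every quintile. Effective length, the length by which the authors divided each gene's count and which the ratio of count to cRPKM gives back, ran the same way over 10475 genes (92.2%), with medians from 0.19 to -0.21 with active photolyase, so effective length and genomic span moved together with the result, and their separate parts were not tested. The 12 largest rises lay at the other end of the scale, with none in the longest quintile and 7 of the 8 that had a span in the shortest.

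**Figure D2:**
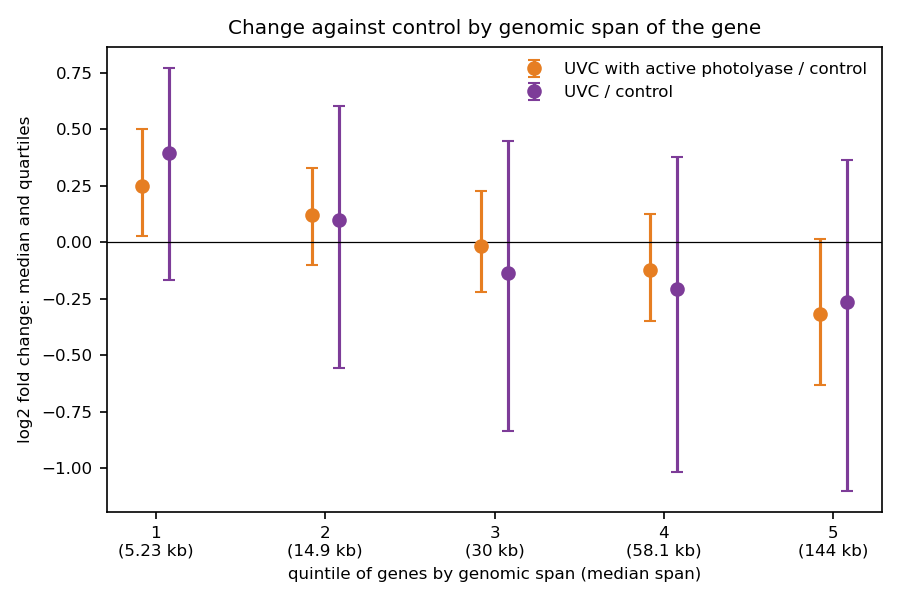
Genes were divided into 5 equal groups (quintiles) by genomic span (horizontal, with median span in kb), and points and bars give the median and quartiles of the log2 fold change over control. The orange points, active photolyase after UVC, fall from 0.25 to -0.32, and the purple points, UVC alone, from 0.40 to -0.26 with broader quartiles.

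The matrix metalloproteases MMP3, MMP10 and MMP1, which degrade the extracellular matrix, stood above control with active photolyase and had fallen after UVC alone. MMP3, stromelysin 1, which degrades proteoglycans and activates other proteases, stood at 6.20 and 6.75 scaled cRPKM in control, 1.02 and 0.954 after UVC alone and 42.7 and 40.4 with active photolyase. MMP10, the closely related stromelysin 2, stood at 56.9 and 63.6 in control, 19.96 and 20.8 after UVC alone and 219 and 229 with active photolyase. The 3 groups did not overlap for either gene, and the active photolyase libraries were the highest. The changes against control were 2.68 ± 0.07 (adjusted p = 7.72e-11) for MMP3 and 1.90 ± 0.06 (adjusted p = 2.38e-10) for MMP10, with -2.71 and -1.56 after UVC alone. MMP1, interstitial collagenase, gave 1.17 with active photolyase and -0.98 after UVC. MMP9, gelatinase B, gave 1.59 with active photolyase and -0.09 after UVC, which did not pass the test. Of the 15 matrix genes tested 6 rose and 4 fell, with a median of 0.06 (0.0019 without control replicate 1), beside 33.4% and 33.2% of all genes. The falls were of the urokinase receptor PLAUR (-0.94), the urokinase PLAU (-0.37), the membrane protease MMP14 (-0.41) and the inhibitor TIMP3 (-0.41). The inhibitor SERPINE2 had fallen after UVC (-1.57) and had a value of 0.06 with active photolyase, which did not pass the test.

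The promoter of MMP10 is shown because stromelysin genes are known targets of AP-1, the FOS and JUN family of transcription factors. Some AP-1 genes rose with active photolyase and FOSL1 fell. FOS was higher after UVC alone than with active photolyase, whereas MMP10 was lower. A part for AP-1 in these changes was not tested. The AP-1 site was searched as TGANTCA on both strands, with any base at N. The capitals mark a match 67 bases before the start of the gene in the RefSeq GRCh38.p14 window chr11:102780579-102780878, minus strand.

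MMP10: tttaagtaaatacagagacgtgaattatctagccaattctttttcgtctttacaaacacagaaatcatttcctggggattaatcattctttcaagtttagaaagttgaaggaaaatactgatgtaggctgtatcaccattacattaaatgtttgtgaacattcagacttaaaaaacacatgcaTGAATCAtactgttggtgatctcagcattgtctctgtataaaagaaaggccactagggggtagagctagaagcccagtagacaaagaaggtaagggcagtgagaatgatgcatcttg

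TGANTCA was present in 3 of 8 matrix genes with a window of 250 bases before to 50 after the start, and in 7.43% of tested genes with a window. The share was 11.1% among genes that rose by at least 2-fold and 14.7% among those that fell by at least 2-fold. MMP1, MMP3 and MMP9 had no window. This motif was added after the data were seen, and a match is a description of letters, not of binding.

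Several signals of the BMP and TGF-beta families, which set growth and differentiation of epithelia, lay on opposite sides of control in the 2 irradiated groups. GREM1, a secreted BMP antagonist, stood at 3.22 and 3.88 scaled cRPKM in control, 0.7499 and 0.963 after UVC alone and 17.1 and 18.8 with active photolyase. BMP6, a ligand, stood at 7.33 and 8.29 in control, 0.112 and 0.112 after UVC alone and 11.6 and 12.4 with active photolyase. In both genes UVC gave the lowest and active photolyase the highest libraries, with changes against control of 2.34 ± 0.09 (adjusted p = 9.64e-10) and 0.62 ± 0.07 (adjusted p = 9.51e-06). The ligands BMP4, TGFB2, TGFB3 and INHBA followed the same pattern, at 0.73, 0.57, 1.13 and 0.64 with active photolyase and -0.97, -1.71, -1.17 and -1.35 after UVC. BMP2 gave 1.16 with active photolyase and -0.14 after UVC. The receptors went down, TGFBR2 by 0.82 and TGFBR1 by 0.22 on the log2 scale. In ID3, an inhibitor of differentiation that BMP signals induce, the order was the other way round, with 37.2 and 32.9 in control, 67.7 and 65.3 after UVC alone and 26.2 and 24.1 with active photolyase. ID3 gave -0.48 ± 0.07 with active photolyase against 0.93 after UVC. Of the 20 family genes tested 11 rose and 5 fell, with a median of 0.60, against 7 rises and 13 falls and a median of -0.73 after UVC. Over the members that pass a filter of 5 cRPKM the median with active photolyase was 0.16.

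Other genes that lay below control after UVC and above it with active photolyase included TGM2, tissue transglutaminase, which crosslinks proteins. TGM2 stood at 7.54 and 7.83 scaled cRPKM in control, 2.37 and 2.55 after UVC alone and 21.6 and 20.6 with active photolyase, a change of 1.46 ± 0.06 against control. In the opposite order, FCHSD2, EPB41L1, SNX4 and WDR70 rose after UVC by 0.55, 0.45, 0.52 and 0.38 and lay at -0.47, -0.42, -0.40 and -0.54 with active photolyase. The opposite changes of these last genes were small beside those of MMP3 and GREM1.

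Genes of the outer, differentiating layers of skin rose, and genes that anchor the basal layer fell. LCE3D, a late cornified envelope protein, stood at 3.90 and 4.14 scaled cRPKM in control, 1.30 and 1.45 after UVC alone and 21.7 and 23.3 with active photolyase. The small proline-rich envelope precursors SPRR2A, SPRR2E, SPRR1B and SPRR3 gave 0.82, 1.03, 0.78 and 0.53 with active photolyase and -1.23, -0.97, -0.48 and -2.77 after UVC. LCE3D itself gave 2.48 ± 0.13 (adjusted p = 8.37e-09) with active photolyase. Of the 28 differentiation genes tested 17 rose and 3 fell, with a median of 0.43, against 8 rises and 14 falls and a median of -0.24 after UVC. The falls included the crosslinking enzyme TGM1 (-0.52) and the transcription factor GRHL1 (-0.91). None of 16 basal keratinocyte genes rose and 11 fell, with a median of -0.39. Integrin and laminin genes that fasten cells to the basement membrane were among them, at -1.11 for LAMA3, -0.95 for ITGB1 and -0.84 for ITGA6, and the basal regulator TP63 gave -0.61. The basal keratins KRT5 and KRT14 did not pass the test, with values of 0.05 and 0.04. The adhesion gene CDH1 fell by 0.85 and JUP by 0.41 on the log2 scale, while the desmosomal PERP gave 0.34.

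None of 9 genes for the EGF receptor family and its ligands rose and 7 fell, with a median of -0.36, against -1.61 after UVC. The ligand TGFA, which drives keratinocyte growth through this receptor, stood at 135 and 139 scaled cRPKM in control, 4.96 and 5.19 after UVC alone and 61.6 and 61.4 with active photolyase. The active photolyase libraries lay between the others, at -1.15 ± 0.05 against control and -4.75 after UVC. The receptor EGFR stood at 106 and 118 in control, 66.3 and 67.5 after UVC alone and 56.5 and 60.6 with active photolyase. For EGFR the active photolyase libraries were no nearer to control than the UVC libraries, at -0.93 ± 0.06 against -0.74 after UVC. The ligand NRG1 gave -1.33 and -1.94.

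Heat shock genes, which encode chaperones that hold and refold other proteins, were low after UVC and above control with active photolyase. HSPA6, a strictly stress-induced member of the 70 kDa class, stood at 145 and 188 scaled cRPKM in control, 15.7 and 16.9 after UVC alone and 288 and 336 with active photolyase. HSPB8, a small heat shock protein, stood at 13.3 and 14.3 in control, 6.93 and 7.25 after UVC alone and 25.3 and 26.3 with active photolyase. CRYAB, another small chaperone, stood at 9.88 and 10.3 in control, 7.76 and 8.07 after UVC alone and 19.5 and 19.2 with active photolyase. In all 3 genes both active photolyase libraries were above both control libraries, and both UVC libraries were below. The changes against control were 0.91 ± 0.10 (adjusted p = 5.74e-06), 0.90 ± 0.06 (adjusted p = 5.02e-08) and 0.94 ± 0.07 (adjusted p = 2.01e-07), with -3.35, -0.96 and -0.35 after UVC. The near-identical genes HSPA1A and HSPA1B, whose reads can be divided between them, gave 0.77 and 0.76. The co-chaperones DNAJB4, DNAJB1 and DNAJA1 gave 0.73, 0.53 and 0.53. Of 26 heat shock genes 18 rose and 3 fell, with a median of 0.34, against 1 rise and 23 falls and a median of -0.71 after UVC. The genes that fell were HSPA4, DNAJB6 and HSF1, the factor that switches the family on (-0.27, -0.23 and -0.31), and the call of DNAJB6 was lost with library totals (-0.13, adjusted p = 0.0792) and without active photolyase replicate 1 (-0.15).

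The promoters of 3 of these genes are shown because the heat shock factor binds inverted GAA units. They were picked from members that rose and hold a match, and a part for the factor in these changes was not tested. The RefSeq GRCh38.p14 windows run from 250 bases before to 50 after the gene start, and the capitals mark GAANNTTC, which is its own reverse complement. They lie at chr1:161524290-161524589 for HSPA6, chr12:119178681-119178980 for HSPB8 and chr6:31815293-31815592 for HSPA1A, all on the plus strand. The HSPA1A window overlaps that of HSPA1L on the other strand. Its marked match is the same site as that of HSPA1L, and the count below includes it for each gene.

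HSPA6: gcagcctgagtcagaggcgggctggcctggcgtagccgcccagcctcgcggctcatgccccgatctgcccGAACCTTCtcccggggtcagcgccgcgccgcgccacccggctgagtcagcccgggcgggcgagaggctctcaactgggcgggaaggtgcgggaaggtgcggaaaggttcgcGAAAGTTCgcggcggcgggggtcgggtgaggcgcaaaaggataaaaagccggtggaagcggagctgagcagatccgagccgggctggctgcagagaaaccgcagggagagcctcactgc

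HSPB8: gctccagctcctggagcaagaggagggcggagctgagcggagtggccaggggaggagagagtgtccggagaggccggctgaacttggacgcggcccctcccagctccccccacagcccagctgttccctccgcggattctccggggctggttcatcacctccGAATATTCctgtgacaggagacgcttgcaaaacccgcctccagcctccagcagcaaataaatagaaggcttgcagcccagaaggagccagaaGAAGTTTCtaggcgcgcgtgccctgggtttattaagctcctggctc

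HSPA1A: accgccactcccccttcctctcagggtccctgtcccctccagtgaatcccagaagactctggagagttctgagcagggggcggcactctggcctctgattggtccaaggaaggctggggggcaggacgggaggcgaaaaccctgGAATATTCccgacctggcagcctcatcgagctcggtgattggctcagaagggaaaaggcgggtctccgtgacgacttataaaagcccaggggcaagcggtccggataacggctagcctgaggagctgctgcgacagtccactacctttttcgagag

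GAANNTTC occurred at least once in 14 of 23 heat shock genes that had a window (60.9%), in 6.35% of tested genes with a window and in 6.77% of all 35116 windows. Among the genes that rose by at least 2-fold the share was 5.73%. The motif was thus frequent in the family and near the general share among the strong rises. No gene of the heat shock list rose by 2-fold or more (largest change 0.94), so the share among strong rises does not describe the family. A match says nothing about binding. Windows were found by symbol for 9050 of 11359 symbols.

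Genes answering to oxidants, metals and foreign compounds gave a mixed picture. HMOX1, heme oxygenase 1, which degrades heme and is induced by oxidants, stood at 75.7 and 71.4 scaled cRPKM in control, 12.9 and 13.1 after UVC alone and 188 and 204 with active photolyase. The HMOX1 groups did not overlap, and the change was 1.42 ± 0.06 (adjusted p = 9.26e-10) against -2.50 after UVC. Of the 29 genes of the NRF2 list, to which HMOX1 belongs, 12 rose and 7 fell with a median of 0.08. The ferritin chains FTL and FTH1, which store iron, gave 0.81 and 0.34, OSGIN1 gave 0.64, and NQO1, a common readout of NRF2, gave 0.17. The glutathione synthesis enzyme GCLC fell by 0.34 on the log2 scale. TGACNNNGC, the core that NRF2 binds, was in 6 of 22 genes of the list with a window (27.3%) and in 19.5% of tested genes with a window. The share was 26.1% in the heat shock list, and HMOX1 had no window. All 5 metallothionein genes tested, which bind metal ions, rose, with a median of 0.60 and 1.16 after UVC. MT1G gave 1.49 and MT2A 0.21, and reads of this family can be divided between its members. Of 7 aryl hydrocarbon receptor genes 4 rose and 2 fell, and of the rises only that of AHR was still called without active photolyase replicate 1, while ARNT (adjusted p = 0.0852), ALDH3A1 (adjusted p = 0.181) and CYP1A1 were not. The receptor AHR stood at 29.4 and 34.4 in control, 9.24 and 9.67 after UVC alone and 42.2 and 42.6 with active photolyase, a change of 0.41 ± 0.07. The target CYP1A1 had risen by 1.53 after UVC and gave 0.19 (adjusted p = 0.0360) with active photolyase. That call was lost without active photolyase replicate 1 (0.07, adjusted p = 0.439) and without control replicate 2 (0.17, adjusted p = 0.0821). The receptor's repressor AHRR fell by 0.98 and its target TIPARP by 0.29 on the log2 scale.

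**Figure D3:**
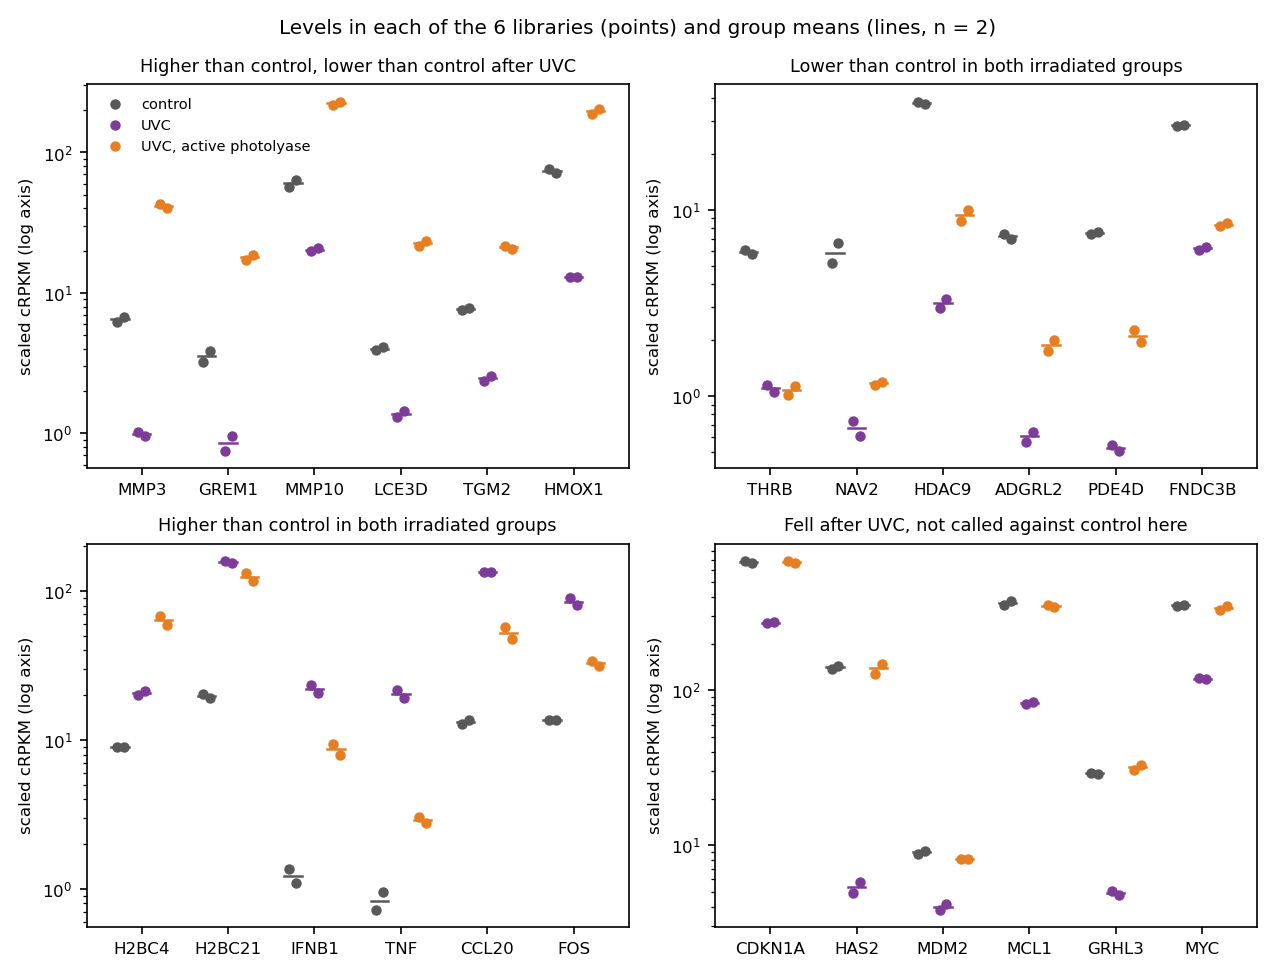
Points are the 6 libraries and lines the group means (n = 2) in scaled cRPKM on log axes, for 24 genes in 4 panels. MMP3, GREM1, MMP10, LCE3D, TGM2 and HMOX1 lie highest with active photolyase. THRB and the genes beside it stay below control, H2BC4 and the genes beside it stay above it, and CDKN1A and HAS2 overlap control. MCL1, GRHL3 and MYC were picked after their values were seen.

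Interferon genes remained above control, and more genes of the interferon response were above control than after UVC alone. IFNB1, the type I interferon of epithelial and other cells, stood at 1.37 and 1.09 scaled cRPKM in control, 23.5 and 20.8 after UVC alone and 9.47 and 7.89 with active photolyase. The active photolyase libraries lay between the other groups, at 2.82 ± 0.15 (adjusted p = 1.12e-08) against control and -1.35 against UVC. The type III interferons IFNL1 and IFNL2 gave 2.02 and 2.60, and -1.08 and -1.29 against UVC. IFNL3 gave 3.02 ± 0.32, and its control libraries differed, at 1.47 and 4.46 scaled cRPKM. Without control replicate 2 the IFNL3 value was 4.01 and without control replicate 1 it was 2.43. Reads of the type III genes can be divided between them, and the effective length of IFNL3 was 0.054 kb.

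Most genes that interferons induce were higher with active photolyase than after UVC alone. IFIT2, which binds foreign RNA, stood at 204 and 267 scaled cRPKM in control, 247 and 237 after UVC alone and 619.7 and 621 with active photolyase. RSAD2, viperin, stood at 55.7 and 74.1 in control, 44.9 and 50.7 after UVC alone and 126 and 143 with active photolyase. For both genes the active photolyase libraries were the highest, at 1.40 ± 0.09 and 1.05 ± 0.11 against control, with 0.04 and -0.44 after UVC, of which the value of IFIT2 did not pass the test. IFIT3 gave 1.07 and -0.07, again with no call after UVC. MX1, USP18 and OASL gave 0.48, 0.72 and 0.40 with active photolyase and -0.78, -0.57 and -0.73 after UVC. Leaving the 4 interferons aside, 27 of 31 response genes rose and 1 fell with active photolyase, with a median of 0.60, and 14 rose and 11 fell after UVC, with a median of 0.04. Over all genes 33.4% rose and 33.2% fell with active photolyase, and 42.6% rose and 43.3% fell after UVC. Tested directly against UVC, 19 of the 31 were higher with active photolyase, 4 lower and 8 not called. Of all genes 39.7% were higher and 40.7% lower in that comparison. The member that fell against control was the RNA sensor RIGI (-0.43 and -1.43). The summed immune cell markers were higher with active photolyase through CD68 (0.65) and CD74 (0.42), while the T cell gene CD3E fell (-1.13) and PTPRC, which all white blood cells carry, was at most 0.045 scaled cRPKM in every library.

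**Figure D4:**
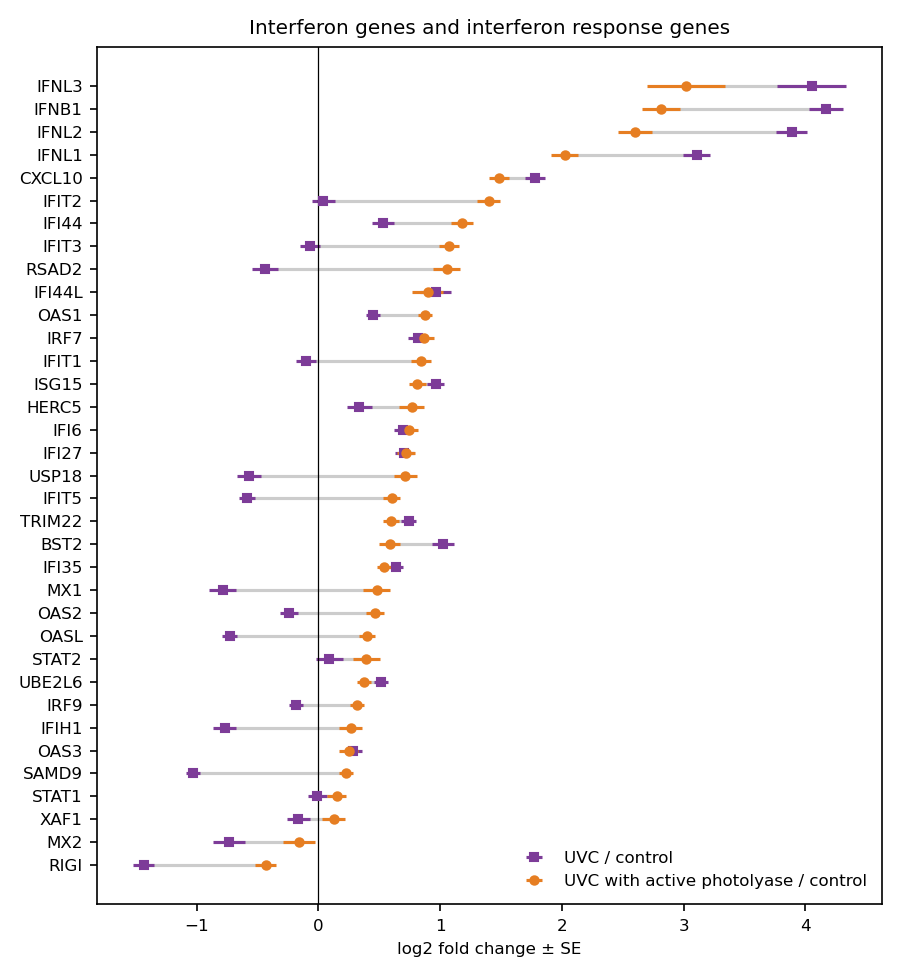
Points are log2 fold changes over control ± SE for the 35 genes of the interferon list, with squares for UVC alone and circles for active photolyase after UVC. IFNB1 and the type III interferons have lower circles than squares, and IFIT2, RSAD2, MX1 and USP18 have higher circles than squares.

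TNF, CCL20 and IL6 were above control with active photolyase and below their levels after UVC alone. TNF, a central inflammatory cytokine, stood at 0.724 and 0.949 scaled cRPKM in control, 21.6 and 19.1 after UVC alone and 3.06 and 2.76 with active photolyase. TNF thus passed the level filter through the active photolyase libraries. CCL20, a chemokine for dendritic and T cells, stood at 12.8 and 13.7 in control, 135 and 135 after UVC alone and 57.5 and 48.0 with active photolyase. IL6 stood at 55.5 and 62.1 in control, 359.5 and 363 after UVC alone and 180.1 and 179 with active photolyase. In all 3 the active photolyase libraries lay between control and UVC, with changes against control of 1.80 ± 0.14 (adjusted p = 2.94e-07), 1.99 ± 0.08 (adjusted p = 1.15e-09) and 1.61 ± 0.06 (adjusted p = 5.94e-10). The neutrophil chemokine genes CXCL3 and CXCL2 gave 2.11 and 1.75, and the skin alarm cytokine IL1A 1.33. CSF2, a growth factor for myeloid cells, lay above UVC as well as control, at 1.64 and 0.83. The NF-kB subunit gene NFKB1 fell by 1.29, RELB by 0.47 and the cytokine LIF by 0.71 on the log2 scale. Of 30 genes in this list 19 rose, 8 of them by at least 2-fold, and 7 fell, with a median of 0.42 against 0.58 after UVC. Against UVC 8 of the 30 were higher and 17 lower.

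Immediate-early genes, which cells transcribe within minutes of a stimulus, showed residual rises in the AP-1 group. FOS stood at 13.8 and 13.6 scaled cRPKM in control, 89.3 and 81.0 after UVC alone and 34.2 and 31.6 with active photolyase, a change of 1.26 ± 0.06 against control. ATF3, a stress-induced member of the ATF family, stood at 61.0 and 65.0 in control, 169 and 166 after UVC alone and 199 and 183 with active photolyase. For ATF3 the levels with active photolyase were not below those after UVC, at 1.60 ± 0.06 against control and 1.42 after UVC. FOSB gave 1.32 and JUN 0.91, whereas FOSL1 fell by 0.54 and KLF6 by 0.24 on the log2 scale. Of the 33 genes 17 rose and 6 fell, with a median of 0.19. The phosphatases DUSP5 and DUSP6, which switch off MAP kinases, had fallen by 1.93 and 1.57 after UVC and had values of 0.12 and -0.04 here, which did not pass the test. MYC gave -1.57 after UVC and -0.06 here, also not called.

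Among the lists, the highest median was that of the replication-dependent histone genes that passed the level filter. H2BC4 stood at 9.01 and 9.01 scaled cRPKM in control, 19.95 and 21.5 after UVC alone and 67.9 and 59.6 with active photolyase. H2BC21 stood at 20.4 and 19.3 in control, 159.6 and 155 after UVC alone and 132 and 116 with active photolyase. Both active photolyase libraries were the highest for H2BC4, while for H2BC21 they lay somewhat below the UVC libraries, and the changes against control were 2.82 ± 0.09 (adjusted p = 3.08e-10) and 2.65 ± 0.07 (adjusted p = 7.72e-11). The list held 30 histone genes matched by symbol, and 18 of them passed the level filter. A gene low in control can pass that filter through the active photolyase libraries alone. Of the 18 histone genes tested 16 rose, 15 of them by at least 2-fold, and none fell. Their median was 1.69 against 1.08 after UVC. Members left out were not tested, so these counts do not describe the whole family. H2BC11 rose by 1.61 ± 0.15 while its value after UVC was -0.07, which did not pass the test. Against UVC, 8 histone genes were higher and 6 lower. These transcripts normally end in a stem-loop without a poly(A) tail. Whether the libraries were selected for poly(A) is not given in the sources used here. Histone genes share sequence, and a read can belong to several of them. SLBP, which binds that stem-loop, had fallen by 1.44 after UVC and gave 0.19 here.

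Ribosomal protein genes changed little but uniformly. Of 75 genes 72 rose and none fell, with a median of 0.35 and a largest value of 0.54 for RPS27, against a median of 0.39 after UVC. RPS25 gave 0.50 and RPL21 0.45. Scaling by library totals raises all changes by about 0.10, and the ribosomal list keeps its direction under it. Mitochondrially encoded genes had a median of -0.20, with 6 of 13 falling and none rising, and MT-CYB gave -0.51. That median rested on single libraries, with -0.010 without active photolyase replicate 2, -0.34 without active photolyase replicate 1 and -0.072 without control replicate 2, and the falls of MT-ND5 and MT-ND3 were not called without active photolyase replicate 2.

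Genes that p53 induces to stop the cell cycle or promote death moved in both directions, and CDKN1A and MDM2 were not called against control. CDKN1A, the p21 inhibitor of cyclin-dependent kinases and a standard target of p53, stood at 685 and 664 scaled cRPKM in control, 273 and 275 after UVC alone and 685 and 662 with active photolyase. Its active photolyase and control libraries overlapped, and the change was -0.001 ± 0.05 (adjusted p = 0.983) against -1.30 after UVC. HAS2, which makes hyaluronan and was among the deepest falls after UVC at -4.71, stood at 138 and 144 in control, 4.93 and 5.79 after UVC alone and 128 and 148 with active photolyase. The change of HAS2 against control was -0.03 ± 0.08 (adjusted p = 0.780). MDM2, the ligase that degrades p53, gave -0.13 ± 0.06 (adjusted p = 0.0507), a call that depends on the setting, since without control replicate 1 it was -0.17 (adjusted p = 0.0279). A value near 0 that misses the threshold does not show equality with control. Of 32 p53 targets 12 rose and 9 fell, with a median of 0.09 and shares of 37.5 and 28.1%, near those of all genes. After UVC alone 12 rose and 15 fell, with a median of -0.02. Without active photolyase replicate 1 the median with active photolyase was 0.023. BBC3, the death promoter PUMA, stood at 8.47 and 9.56 in control, 24.4 and 24.3 after UVC alone and 21.8 and 18.9 with active photolyase, a change of 1.18 ± 0.08, and the related PMAIP1 gave 0.70. The death receptor genes TNFRSF10A and TNFRSF10B fell by 0.55 and 0.50, and the metabolic regulator TIGAR by 0.69 on the log2 scale. Of 28 BCL2 family and caspase genes 14 rose and 4 fell, with a median of 0.17. The survival gene BCL2L1 fell by 0.58 on the log2 scale, MCL1 gave -0.06, which did not pass the test, and CASP9 gave 0.48. After UVC these last 3 genes had given -2.02, -2.14 and -1.18.

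Nucleotide excision repair genes moved in both directions in the proportions of all genes, with 11 of 33 up and 11 down (33.3% each) and a median of -0.01. The nuclease gene ERCC5 (XPG) stood at 5.28 and 5.55 scaled cRPKM in control, 12.7 and 13.5 after UVC alone and 9.04 and 8.87 with active photolyase, a change of 0.73 ± 0.06. The damage sensor gene DDB2 gave 0.34 and 0.77 after UVC, and XPC gave 0.16 (adjusted p = 0.0590) and 0.47. Without control replicate 1 XPC passed the test, at 0.22 (adjusted p = 0.0271). CDK7, the kinase of the repair and transcription factor TFIIH, stood at 311 and 303 in control, 22.2 and 26.04 after UVC alone and 199 and 185 with active photolyase, so that a change of -3.67 after UVC compares with -0.67 ± 0.07 here. PCNA, the replication and repair clamp, gave 0.55. The checkpoint list had 13 rises and 1 fall among 23 genes and a median of 0.23. The kinase gene ATM stood at 1.12 and 1.195 scaled cRPKM in control, 4.29 and 4.35 after UVC alone and 2.96 and 2.98 with active photolyase, a change of 1.36 ± 0.06. ATR, the kinase that senses stalled forks and single-stranded DNA, gave 0.41 ± 0.05, RAD9A 0.83 and MRE11 0.65.

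Cell cycle genes were on balance higher than in control. Of 32 genes of G1/S and DNA replication 20 rose and 4 fell, with a median of 0.21 against -0.06 after UVC. GINS3, a subunit of the replicative helicase, gave 0.73 and -1.24, and the regulator E2F1 gave 0.65, whereas E2F2 fell by 0.33 on the log2 scale. Of 22 mitotic genes 12 rose and 3 fell, with a median of 0.29 against 0.49 after UVC. The shares that rose and fell were 62.5 and 12.5% for G1/S and 54.5 and 13.6% for mitosis, beside 33.4 and 33.2% of all genes. CDC20, BUB1B and CCNB2 gave 0.65, 0.93 and 0.67. KIF23, a kinesin needed to separate daughter cells, stood at 27.6 and 25.1 in control, 7.03 and 7.01 after UVC alone and 10.6 and 10.7 with active photolyase, and fell by 1.31 ± 0.06 on the log2 scale.

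SR splicing factors stayed below control while hnRNP genes did not. SR proteins bind exons and promote their inclusion, and hnRNP proteins often oppose it. Of 22 genes for SR proteins and their kinases 2 rose and 12 fell, with a median of -0.22 against -0.62 after UVC. SRSF3 stood at 168 and 165 scaled cRPKM in control, 61.1 and 62.2 after UVC alone and 100.2 and 96.3 with active photolyase. The SRSF3 libraries with active photolyase lay between the other groups. SRSF5, SRSF6 and SRSF3 gave -0.80, -0.78 and -0.76. The genes that rose were the kinases CLK1 and CLK3, which phosphorylate SR proteins, at 0.98 and 0.58, with 0.24 and 0.05 after UVC, the latter not called. Of 26 hnRNP and related genes 13 rose and 7 fell, with a median of 0.12 against -0.39 after UVC. HNRNPA1 and HNRNPK gave 0.43 and 0.41, and PTBP3 and SYNCRIP -0.65 and -0.44. In the RNA polymerase II list 9 of 31 genes rose and 13 fell, with a median of -0.08. HEXIM1, which holds the elongation kinase P-TEFb inactive, rose by 0.81 ± 0.05, and the elongation kinase gene CDK13 fell by 0.59 on the log2 scale. Splicing itself was not analysed here.

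Clock genes moved in both directions, and the activator genes NPAS2 and CLOCK were among those that fell. NPAS2 and CLOCK, partners of BMAL1, stood at 2.76 and 2.96 and 8.24 and 9.11 scaled cRPKM in control and at 0.960 and 0.780 and 3.12 and 3.24 with active photolyase. The changes of NPAS2 and CLOCK were -1.71 ± 0.12 and -1.45 ± 0.07, and the repressor CRY1 gave -0.95. BHLHE41, NFIL3 and PER1 rose, at 1.07, 1.03 and 0.79. The list had 8 rises and 8 falls among 18 genes. Cholesterol synthesis genes had 8 rises and 8 falls among 26, with IDI1 at 0.98 and the sterol enzyme SQLE at -0.43. Among genes of the unfolded protein response and the integrated stress response 4 of 22 genes rose and 11 fell, with a median of -0.14. SEL1L, a part of the machinery that degrades misfolded proteins, fell by 0.76, and ASNS, asparagine synthetase, by 0.48 on the log2 scale, while ATF5 gave 0.56.

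**Figure D5:**
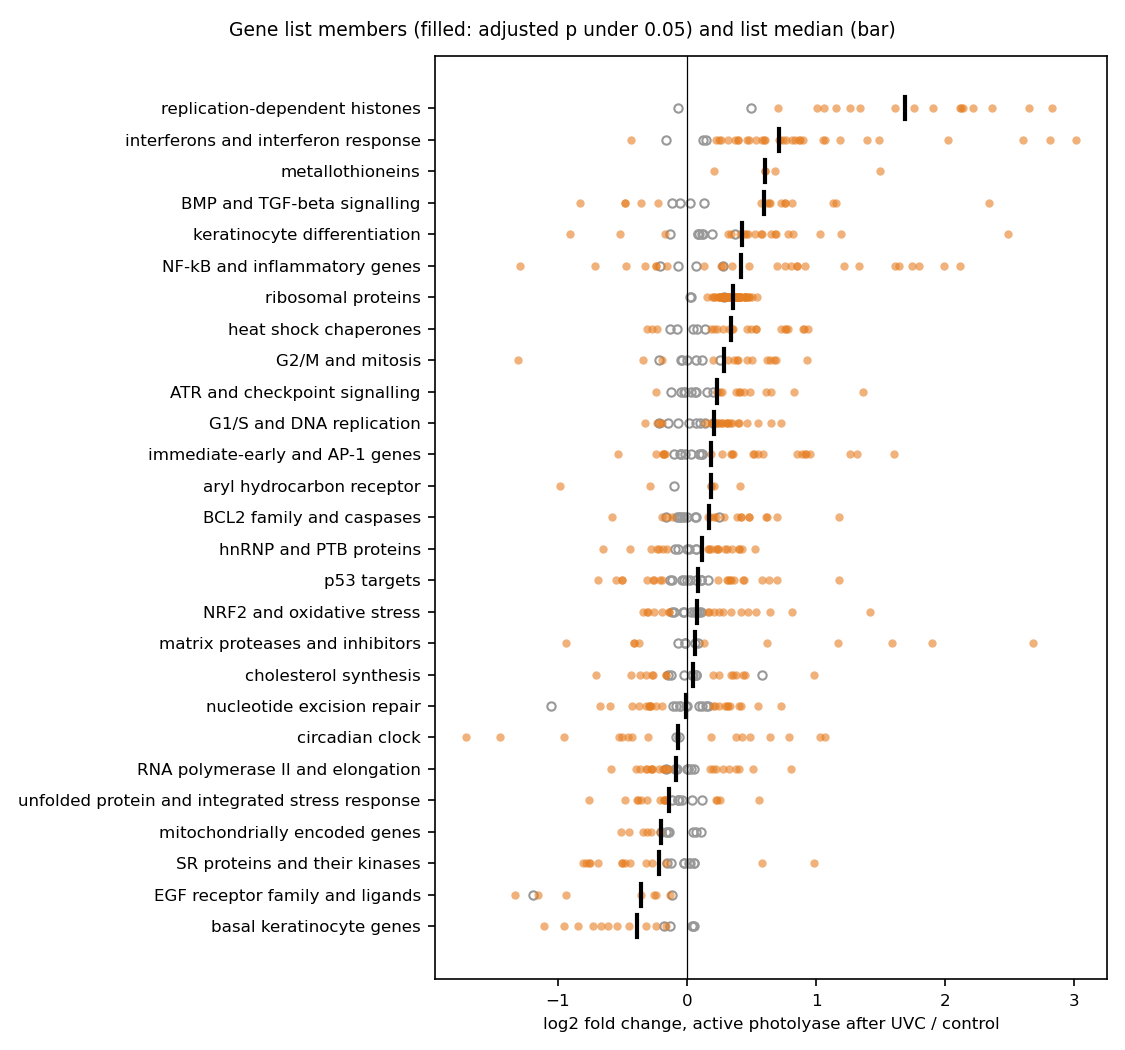
Each point is a member of 1 of 27 gene lists at its log2 fold change of active photolyase after UVC over control, filled where the adjusted p was under 0.05, and black bars are list medians. Only members that passed the level filter are shown. Among these the histone list lies highest (median 1.69) and the basal keratinocyte list lowest (median -0.39).

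A few genes differed from both other groups in 1 direction, with no call between UVC and control. AMTN, amelotin, stood at 1.44 and 1.11 scaled cRPKM in control, 0.793 and 1.07 after UVC alone and 5.67 and 5.39 with active photolyase. TAC1, the precursor of substance P, stood at 1.99 and 1.91 in control, 2.00 and 1.81 after UVC alone and 5.72 and 6.20 with active photolyase. The highest libraries were those with active photolyase for both genes, at 2.12 ± 0.16 and 1.61 ± 0.12 against control and 2.57 and 1.64 against UVC. The zinc finger genes ZBTB32 and ZNF554 gave 1.80 and 1.68 against control. In the other direction CERS6, a ceramide synthase, stood at 8.90 and 8.59 in control, 8.56 and 8.23 after UVC alone and 4.78 and 4.85 with active photolyase. CERS6 gave -0.86 ± 0.05 against control and -0.81 against UVC. ZNF704, the RNA-binding gene MSI2, FMNL2 and UBE2E2 gave -0.79, -0.72, -0.69 and -0.78 against control. These 5 genes spanned 319, 246, 429, 315 and 389 kb, so all belong to the longest quintile.

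The largest rises of all included several rows for which no symbol was matched here. KRTAP3-2, a keratin-associated protein of hair, stood at 0.857 and 1.49 scaled cRPKM in control, 4.73 and 5.05 after UVC alone and 12.4 and 13.5 with active photolyase, a rise of 3.47 ± 0.20. The antisense gene IRAG1-AS1 gave 2.57, and whether the counting used strand is not given in the sources used here, so its reads cannot be told from those of IRAG1. The rows ENSG00000197846, ENSG00000187990, ENSG00000168274 and ENSG00000233224, which have no symbol here, rose by 3.59, 3.32, 2.95 and 2.77. A missing symbol reflects the name list used and does not show that a gene is poorly known. Lists were matched by symbol, so rows without a symbol could not enter them, the histone list included. Any of these rows may therefore belong to a family counted above.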

How the data were processed

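RNA was sequenced from 6 HaCaT libraries. The kit was Illumina TruSeq, per the labels, and Bowtie aligned the reads to hg19, per the submitters' processing notes. The sources used here give neither the aligner's version nor the counting rule nor the annotation. The authors deposited, for 19847 Ensembl genes per library, whole-number read counts and corrected RPKM (cRPKM) values, and the same 354 genes lacked values throughout. Symbols were matched for 18913 of 19493 rows.

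The test was the quasi-likelihood F test of edgeR 4.0.16 (R 4.3.3), applied to the deposited counts. The fit had 3 group means over all 6 libraries, and p-values were adjusted over 11360 genes by Benjamini and Hochberg. Libraries were scaled by trimmed means of M values, with factors of 0.898 and 0.895 (control), 1.16 (each UVC library), 0.958 and 0.962 (active photolyase). Every change is thus relative to the bulk of transcripts. The common coefficient of variation was 4.59%. On simulated counts (11360 genes, 50 per size, active photolyase against control) the test recovered 64% of changes of 1.25-fold, and 98, 100 and 98% of those of 1.5, 2 and 4-fold, and called 4 unchanged genes. The simulation changed few genes, and only in the active photolyase group, whereas 66.5% of genes were called in the data. Its shares recovered and its number of false calls therefore need not hold for the data. Replicates differed by more than counting noise in each group, with chi-square per degree of freedom of 25.4, 5.81 and 15.6.

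The genes and lists were chosen with earlier results of these data known. By rule, the text names the 12 largest rises and falls among called genes without overlap and with at least 5 cRPKM in their higher group, up to 6 genes each way for those on opposite sides or the same side of control in both irradiated groups, 5 each way not called after UVC, up to 3 called members of smallest p each way per list, and 14 set genes. The other list members named were chosen after their values were seen. Some members the rule selects are not described. Alternatives were other scalings, DESeq2 1.42.0, limma 3.58.1 on log2(cRPKM + 1) or + 0.1, other level filters, a fit of 4 libraries, a replicate block and each library left out.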

Additional observations from a re-analysis of the deposited data

How the results depend on the processing

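With 2 libraries per group and 3 residual degrees of freedom, the calls lean on the spread pooled over genes, and changes under 1.5-fold were recovered less often in the simulation. Leaving out each library in turn gave 3166 to 3645 rises and 3253 to 3698 falls, of which 362 to 454 and 211 to 253 were at least 2-fold. Changes of at least 2-fold numbered 515 rises and 158 falls with library totals. Limma, which differs in test, scaling and pseudocount at once, gave 230 and 97 on log2(cRPKM + 1) and 145 falls with + 0.1, no level filter gave 1051 and 373, and a filter at 5 cRPKM gave 166 and 152. DESeq2 called 3525 rises and 3461 falls. Replicate numbers are shared between groups, but same-numbered libraries did not all deviate together (correlations of 0.0046, 0.064 and 0.19 for control with UVC, control with active photolyase and UVC with active photolyase), and a replicate block gave 3834 rises, 3798 falls, and 402 and 234 at 2-fold or more. Under library totals the shortest and longest quintiles by span had medians of 0.35 and -0.22, under limma with + 1 0.31 and -0.18, under limma with + 0.1 0.34 and -0.21, and with no filter 0.19 and -0.38. The longest quintile gave -0.38 with the filter at 5 cRPKM, and leaving out libraries gave 0.22 to 0.27 and -0.35 to -0.29. Signs of values near 0 changed. CDKN1A, which was never called, was at 0.0031 with the scaling and test of DESeq2, 0.097 with totals, 0.095 with both limma fits, 0.027 with the 5 cRPKM filter, 0.0014 with 4 libraries, 0.022 without control replicate 1 and -0.027 to 0.026 over the libraries left out. HAS2 was at 0.073 with totals, 0.067 and 0.068 with limma, 0.0021 with the 5 cRPKM filter, 0.0035 without control replicate 2 and -0.13 to 0.075 over the libraries left out. Under totals, limma with + 1 and limma with + 0.1 the list medians were 0.026, 0.019 and 0.024 for the clock, 0.087, 0.069 and 0.082 for excision repair (-0.065 to 0.0071 over the libraries left out) and 0.013, 0.0083 and 0.010 for RNA polymerase II. Library totals gave medians of 0.19 for p53 targets, 0.17 for NRF2, 0.27 for the BCL2 family, 0.22 for hnRNP, 0.29 for immediate-early genes, 0.16 for matrix proteases, -0.12 for SR proteins, -0.042 for the unfolded protein response and -0.10 for mitochondrial genes. With no filter medians were -0.015 for cholesterol synthesis and -0.00040 for matrix proteases. The histone median was 1.43 under limma with + 1. For all of these the cause was not tested. MDM2 passed the threshold with no filter (-0.19, adjusted p = 0.00988), and XPC with library totals (0.26). With the replicate block both passed, MDM2 at -0.13 (adjusted p = 0.038) and XPC at 0.16 (adjusted p = 0.0456).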
